A study of Mus musculus with 4 samples.

Results

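The constant region genes of the immunoglobulin loci were examined in follicular B (FOB) cells, the recirculating mature B cells of the spleen. The 10 genes were taken by symbol from the 55401 genes of the deposited table. They were the heavy chain genes Ighm, Ighd, Ighg1, Ighg2b, Ighg2c, Ighg3 and Igha on chromosome 12, the kappa light chain gene Igkc on chromosome 6 and the lambda light chain genes Iglc1 and Iglc2 on chromosome 16. Sorted FOB cells (B220+, CD93-, CD23 high, CD21 low) of C57BL/6 mice aged 7 weeks gave 2 WT and 2 Hnrnpf bKO libraries of poly(A) RNA, all described as one experiment. Mice of both genotypes carried loxP-flanked Hnrnpf alleles (Hnrnpf fl/fl), and those of Hnrnpf bKO also carried 1 allele that expresses Cre in B cells, where it deletes exon 4 of Hnrnpf. Hnrnpf encodes hnRNP F, a protein that binds G-rich RNA and acts on splicing and polyadenylation. The comparison shows how loss of hnRNP F in B cells moved with the RNA of the B cell receptor and of each antibody class. The labels do not say whether each library came from its own mouse, so p-values measure the spread between these samples, which may be technical.

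An antibody chain joins a variable part, assembled from V, D and J segments, to a constant part. A mature naive B cell makes one long heavy chain primary transcript through the mu and delta constant exons, and alternative splicing and polyadenylation yield IgM or IgD with the same variable part. Class switching removes DNA between the variable part and a downstream constant gene, so that the cell makes IgG, IgE or IgA. Each heavy chain constant gene also has a secreted form and a membrane form. In most of them the secreted form ends after the last constant exon. The membrane form lacks this end and is joined to membrane exons. In Ighd the secreted end is an exon of its own. The kappa light chain is used by most mouse B cells, and the lambda chains by a minority.

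The ends that set the 2 forms of Ighm and Ighd apart are shown because gene counts added both forms together. These are the last 60 coding bases of each annotated transcript in GENCODE vM21 (GRCm38, minus strand), with the stop codon in capitals; the membrane ends join 2 membrane exons, so that their genomic span is longer.
Ighm secreted, chr12:113420867-113420926: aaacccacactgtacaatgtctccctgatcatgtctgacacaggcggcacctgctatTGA
Ighm membrane, chr12:113418826-113419003: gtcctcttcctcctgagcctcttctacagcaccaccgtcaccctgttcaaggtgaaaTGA
Ighd secreted, chr12:113409578-113409637: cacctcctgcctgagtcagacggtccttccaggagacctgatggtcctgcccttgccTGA
Ighd membrane, chr12:113407535-113407814: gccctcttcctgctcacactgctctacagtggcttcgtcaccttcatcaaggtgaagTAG

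The lambda constant genes resemble each other to different degrees, and how far reads can tell them apart bears on their counts. The coding bases 19 to 78 of Iglc2 (60 bases) are shown with the matching bases of Iglc1 and of Iglc3, a neighbouring gene, and capitals mark bases that differ from Iglc2.
Iglc2, chr16:19198776-19198835: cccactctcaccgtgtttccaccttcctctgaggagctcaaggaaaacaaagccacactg
Iglc3, chr16:19065605-19065664: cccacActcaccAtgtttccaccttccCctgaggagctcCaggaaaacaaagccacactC
Iglc1, chr16:19061995-19062054: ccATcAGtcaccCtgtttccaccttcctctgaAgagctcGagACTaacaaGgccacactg
Iglc3 differed from Iglc2 at 5 of these bases and Iglc1 at 11. Over the whole coding sequence, Iglc2 and Iglc3 were identical at 306 of 317 aligned bases (96.5%), Iglc1 and Iglc2 at 236 of 316 (74.7%). Among the heavy chain genes the closest pair was Ighg2b and Ighg2c, with 88.2% identity, and Ighm and Ighd shared 71.9%. No stretch of 150 bases, the length of a read, in any of the 10 genes occurred in a transcript of another gene. At 75 bases, the share of stretches that did was 0.931% for Iglc2 (with Iglc3), 0.768% for Ighg2b, 0.574% for Ighg3, 0.480% for Ighg2c and 0 for the other genes. The coordinates in the deposited table equalled those of GENCODE vM21 for 10 of 10 genes. On the minus strand of chromosome 12 the heavy chain genes follow each other from Ighm (ENSMUSG00000076617, chr12:113418558-113422730) and Ighd (ENSMUSG00000104213, chr12:113406604-113416324), through Ighg3, Ighg1, Ighg2b and Ighg2c, to Igha (ENSMUSG00000095079, chr12:113254830-113260236). Igkc (ENSMUSG00000076609) lies at chr6:70726435-70726966 on the plus strand. Iglc1 (ENSMUSG00000105906, chr16:19061618-19062071) and Iglc2 (ENSMUSG00000076937, chr16:19198396-19200351) lie on the minus strand.

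The libraries held 15698567 to 18908963 gene counts each. Hnrnpf had 5780 and 6634 counts in the WT libraries, against 1167 and 1194 in the Hnrnpf bKO libraries, a log2 fold change of -2.32. Among 9 follicular B cell markers, 2 rose, among them Fcer2a, which encodes CD23, and 4 fell, among them Ms4a1, Pax5 and Cr2, at an edgeR adjusted p of at most 0.05. This threshold was passed by 6.97% of the 14123 genes tested, and by 12.9% of the 3970 whose mean reached 1000 counts. Of 8 markers of myeloid cells and neutrophils, 7 could be tested and 3 rose, S100a8, S100a9 and Ngp, beside 4.15% of all genes tested. The summed level of these 8 markers was 15.2 and 23.4 CPM (counts scaled to the library total) in WT against 29.7 and 49.2 CPM in Hnrnpf bKO, and its part in the results was not tested.

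The 10 constant genes together made up 1.02% and 1.06% of all counts in the WT libraries, against 1.09% and 1.12% in the Hnrnpf bKO libraries. Levels of different genes were compared in FPKM, which the authors scaled to exonic gene size. Igkc was the most abundant, with 3983 to 4223 FPKM over the 4 libraries. Ighm followed with 2432 to 2602 FPKM, then Ighd with 1470 to 1878, Iglc2 with 582 to 671 and Iglc1 with 149 to 203 FPKM, and no range overlapped the next. The 5 switched genes lay between 1.67 and 31.0 FPKM. Their ranges overlapped one another, from 7.19 to 31.0 FPKM for Igha and 11.5 to 20.4 for Ighg2b, through 5.94 to 13.6 for Ighg3, to 1.96 to 8.63 for Ighg1 and 1.67 to 7.90 for Ighg2c. So RNA of the classes of a naive cell, IgM and IgD, exceeded that of every switched class in all 4 libraries.

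**Figure D1:**
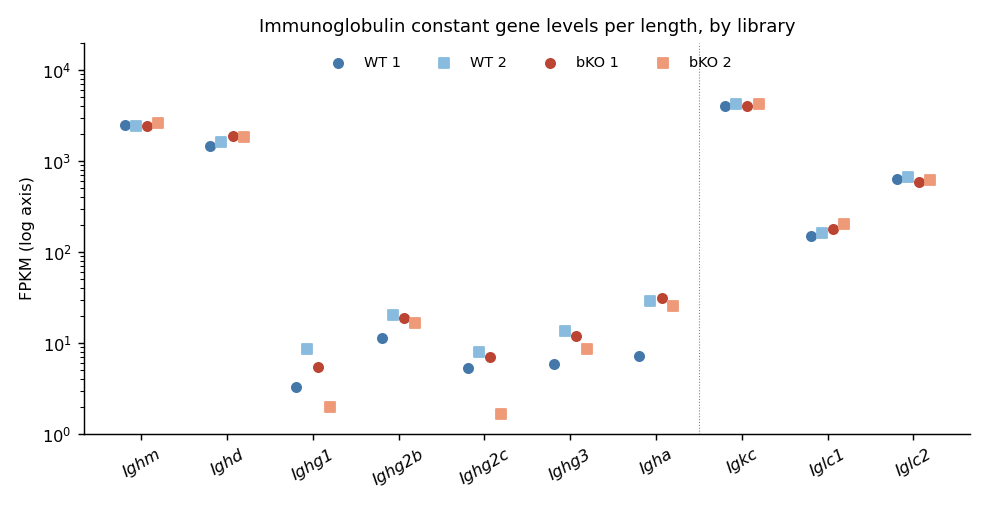
Deposited FPKM (log axis) of the 10 constant genes in each of the 4 libraries, with heavy chain genes left and light chain genes right of the dotted line. Ighm, Ighd, Igkc, Iglc1 and Iglc2 lie close together across libraries, while the switched genes Ighg1 to Igha spread, with Igha at 7.19 FPKM in WT library 1 and 25.5 to 31.0 FPKM in the others.

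With edgeR's quasi-likelihood test, 0 of the 10 genes reached both an adjusted p of 0.05 or less and a 2-fold difference, which 0.899% of the 14123 genes tested reached. Without the fold threshold, 2 of 10 passed, Ighd and Iglc1, both higher in Hnrnpf bKO, beside 6.97% of all genes in either direction and 4.15% higher. Among the 3970 genes whose mean reached 1000 counts, 12.9% passed. The same 2 genes were the members with an unadjusted p under 0.05 (20.3% of all genes), and DESeq2 likewise called 0 at a 2-fold change and 2 without it. The libraries of the 2 genotypes did not overlap for 3 of 10 genes, Ighd, Iglc1 and Iglc2, against 50.1% of all genes. The median log2 fold change was 0.05 over the 10 genes and 0.00 over all genes tested.

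**Figure D2:**
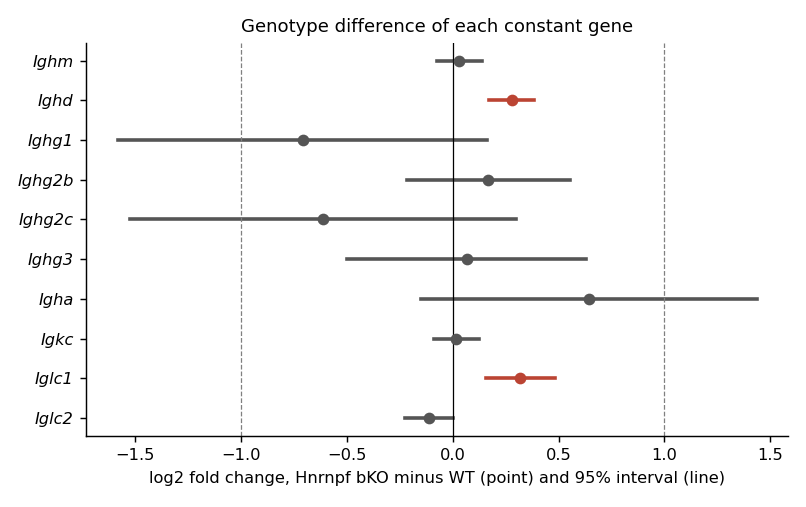
log2 fold change of each constant gene, Hnrnpf bKO minus WT (point), with its 95% interval from edgeR (line); red marks an adjusted p of at most 0.05 and dashed lines mark a 2-fold change. Ighd (0.28) and Iglc1 (0.32) lie above 0, Ighm (0.03) and Igkc (0.02) have short intervals around 0, and the 5 switched genes have the longest.

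Ighm, whose product is the first class on a B cell, had 77829 and 87076 counts in the WT libraries, against 71993 and 88713 in Hnrnpf bKO. In CPM, these came to 4757 and 4605 in WT against 4586 and 4908 CPM in Hnrnpf bKO. The Hnrnpf bKO libraries held both the lowest and the highest value. The log2 fold change was 0.03 ± 0.05 (SE), with a 95% interval from -0.07 to 0.14 and an edgeR adjusted p of 0.771.

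Ighd, whose product is co-expressed with IgM on mature B cells, had 45691 and 57580 counts in WT against 56006 and 62521 in Hnrnpf bKO. This gave 2793 and 3045 CPM in WT against 3568 and 3459 CPM in Hnrnpf bKO. Both Hnrnpf bKO libraries lay above both WT libraries. Ighd rose by 21.3% (log2 fold change 0.28 ± 0.05 (SE), 95% interval 0.17 to 0.38, edgeR adjusted p = 0.00451). It ranged from 0.22 to 0.34 when each library was left out in turn and stayed past the threshold. With limma-trend on log2(FPKM + 1) the log2 fold change was 0.27 and the adjusted p 0.130, in a fit that passed 41 genes in all (0.302%).

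Set within the heavy chain, Ighm made up 62.3% and 58.7% of heavy chain constant counts in WT against 55.0% and 57.7% in Hnrnpf bKO. Ighd made up 36.6% and 38.8% in WT against 42.8% and 40.7% in Hnrnpf bKO. These percentages are of the 7 heavy chain genes, and their Wilson 95% intervals were at most 0.3 percentage points to either side. The ratio of Ighd to Ighm counts, which the length of the genes cannot move between libraries, was 0.587 and 0.661 in WT against 0.778 and 0.705 in Hnrnpf bKO. Both Hnrnpf bKO libraries were above both WT libraries, and the WT library with the higher ratio and the Hnrnpf bKO library with the lower one were the nearest pair. The mean difference was 0.25 on the log2 scale (WT -0.68 ± 0.12, Hnrnpf bKO -0.43 ± 0.10, SD, n = 2 each), and an exact two-sided permutation test gave p = 0.333. This is the smallest p that 2 against 2 libraries allow. The same holds for each of the 18 shares and ratios computed, of which 10 did not overlap between genotypes (7 higher and 3 lower), with p = 0.333 and a Benjamini-Hochberg adjusted exact p of 0.6. Of all genes tested, 50.1% did not overlap either, and several of the 18 are built from the same counts. Intervals of shares cover counting error only, since the reads carry no molecular identifiers and copies of one molecule may be counted more than once.

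**Figure D3:**
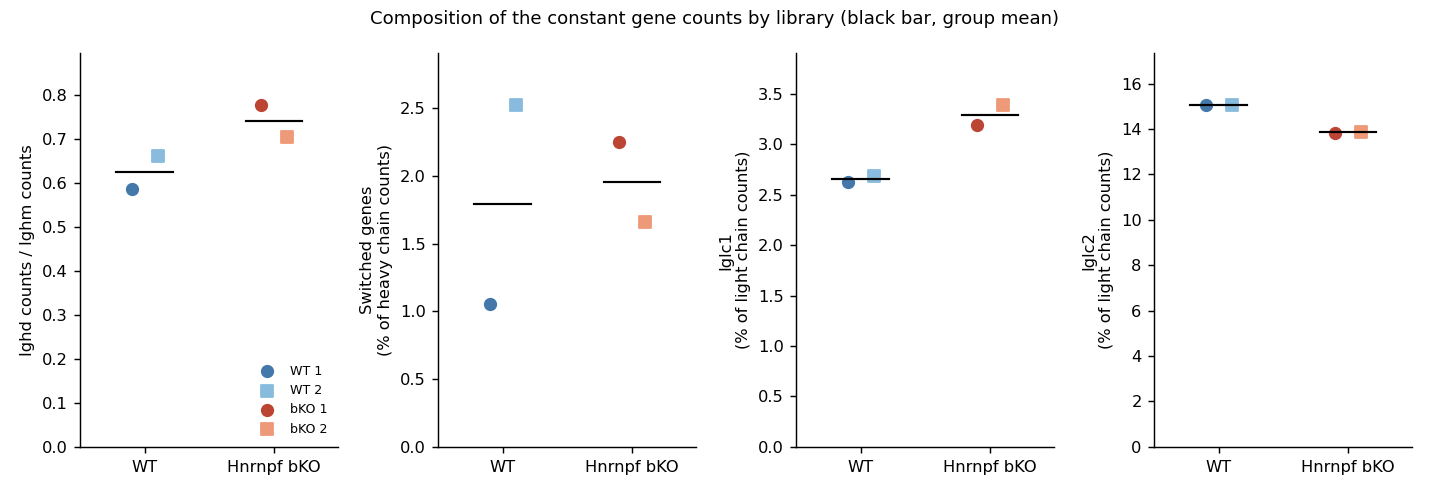
From left to right, the ratio of Ighd to Ighm counts, the summed share of the 5 switched genes in heavy chain constant counts, and the shares of Iglc1 and of Iglc2 in light chain constant counts, for each library (points) with group means (bars); every axis starts at 0. The ratio of Ighd to Ighm runs from 0.587 to 0.661 in WT and from 0.705 to 0.778 in Hnrnpf bKO, whereas the switched share spans 1.06% to 2.53% within WT alone.

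Genes known to act on heavy chain RNA were followed beside this ratio. Of the 11 genes of this list, all were tested, 2 rose and 1 fell at an edgeR adjusted p of at most 0.05, and the median log2 fold change was -0.05. DESeq2 passed 2 and limma-trend 1. Among all genes tested, 6.97% passed at the same edgeR threshold. Zfp318, the nuclear factor needed for the long transcript that reaches Ighd, had 615 and 550 CPM in WT against 640 and 604 CPM in Hnrnpf bKO (log2 fold change 0.11, edgeR adjusted p = 0.345). Its groups overlapped. Ell2, an elongation factor that favours the secreted end of the heavy chain in antibody-secreting cells, had 23.2 and 22.7 CPM in WT and fell to 17.2 and 16.8 CPM (log2 fold change -0.42, edgeR adjusted p = 0.0289). The 2 genes that rose, Hnrnph1 and Hnrnph3, were relatives of Hnrnpf. Hnrnph2, another relative in the list, did not pass, with 110 and 110 CPM in WT against 113 and 109 CPM in Hnrnpf bKO (log2 fold change 0.03, edgeR adjusted p = 0.839). Hnrnph1 went from 606 and 677 CPM to 887 and 932 CPM (log2 fold change 0.52, edgeR adjusted p = 0.000162), and Hnrnph3 from 98.2 and 93.5 CPM to 165 and 162 CPM (log2 fold change 0.78, edgeR adjusted p = 5.7e-06). Cstf2 and Cstf3, subunits of the cleavage stimulation factor that acts in polyadenylation, had log2 fold changes of -0.10 and -0.05 and did not pass. The list stands beside the Ighd to Ighm ratio as measured, and its part in that ratio was not tested.

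The 5 switched genes, which encode IgG1, IgG2b, IgG2c, IgG3 and IgA, together held 1317 and 3750 counts in the WT libraries, against 2943 and 2556 in the Hnrnpf bKO libraries. Their share of heavy chain constant counts was 1.06% (Wilson 95% interval 0.9998% to 1.11%) and 2.53% (2.45% to 2.61%) in WT. In Hnrnpf bKO it was 2.25% (2.17% to 2.33%) and 1.66% (1.60% to 1.73%). Both Hnrnpf bKO values lay between the 2 WT values, and the exact permutation p was 1. Counts over constant exons do not tell RNA of a switched cell from the transcripts that an unswitched locus can make, and in sorted bulk cells fewer cells of a class and less RNA per cell cannot be told apart.

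Igha spread the most in WT, with 314 and 1454 counts, and had 1299 and 1228 counts in Hnrnpf bKO. The 3.98-fold distance between the WT libraries was the fifth largest of the 9875 tested genes whose mean reached 100 counts. WT library 1 stood alone at 19.2 CPM, with 76.9 CPM in the other WT library and 82.8 and 67.9 CPM in Hnrnpf bKO. The log2 fold change was 0.64 ± 0.37 (SE, edgeR adjusted p = 0.358). Without WT library 2 it was 1.98 (edgeR adjusted p = 2.4e-11), and without WT library 1 it was -0.02 (edgeR adjusted p = 0.962), where the lone WT library was assumed to vary as the others did.

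Ighg1 had 141 and 423 counts in WT against 223 and 92 in Hnrnpf bKO. Ighg2c had 115 and 198 counts in WT against 148 and 40 in Hnrnpf bKO. Hnrnpf bKO library 2 held the lowest value of both genes, and the highest was in WT library 2. The distance between the Hnrnpf bKO libraries, 4.19-fold for Ighg2c and 2.76-fold for Ighg1, was the second and the third largest of the 9875 genes. The log2 fold changes were -0.71 ± 0.40 for Ighg1 and -0.61 ± 0.42 for Ighg2c (SE), with edgeR adjusted p of 0.356 and 0.462. Without Hnrnpf bKO library 1 they were -1.60 and -1.97 (edgeR adjusted p = 0.0185 and 0.000934), and without Hnrnpf bKO library 2 Ighg2c was 0.11 (edgeR adjusted p = 0.877). Ighg1 was -1.22 (edgeR adjusted p = 0.00315) without WT library 1 and 0.15 (edgeR adjusted p = 0.867) without WT library 2.

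Ighg2b, the most abundant IgG gene by count, had 503 and 1031 counts in WT against 800 and 809 in Hnrnpf bKO. Ighg3 had 244 and 644 counts in WT against 473 and 387 in Hnrnpf bKO. For both genes the WT libraries held the lowest and the highest value, with Hnrnpf bKO between them. Their log2 fold changes were 0.17 ± 0.18 and 0.07 ± 0.26 (SE, edgeR adjusted p = 0.653 and 0.924). Without WT library 2 they were 0.65 and 0.79 (edgeR adjusted p = 0.000416 and 0.00445), and without WT library 1 they were -0.17 and -0.39 (edgeR adjusted p = 0.391 and 0.114). Ighe, the IgE gene, had 4 and 13 counts in WT against 8 and 0 in Hnrnpf bKO and was too low to be tested.

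All 5 switched genes had a higher CPM in WT library 2 than in WT library 1 and in Hnrnpf bKO library 1 than in Hnrnpf bKO library 2. Of the 9877 genes of the table whose mean reached 100 counts, 28.5% had this order. Of 10 markers of germinal center and switching B cells, 7 had it. Mki67, a marker of dividing cells, had 541 and 991 counts in WT against 788 and 422 in Hnrnpf bKO. Gcsam, a germinal center marker, had 12 and 73 counts in WT against 37 and 6 in Hnrnpf bKO. The other 3 markers, Bcl6, Rgs13 and Batf, were lower in Hnrnpf bKO library 1 than in library 2, with 101 and 129 CPM for Bcl6, 1.98 and 2.10 CPM for Rgs13 and 17.8 and 19.8 CPM for Batf. Between genotypes, 0 of the 10 markers passed the edgeR test between genotypes (1 had an unadjusted p under 0.05, and DESeq2 and limma-trend passed 0). Their summed level was 200 and 247 CPM in WT against 194 and 182 CPM in Hnrnpf bKO, and 0 of the 10 were absent. Most of this sum was Bcl6, with 136.5 and 144.4 CPM in WT against 100.8 and 129.1 CPM in Hnrnpf bKO. Jchain, whose product links IgA dimers and IgM pentamers, had 60 and 240 counts in WT against 175 and 161 in Hnrnpf bKO. Of the 12 markers of antibody-secreting cells, 11 were tested and 1 fell (Edem1, log2 fold change -0.35, edgeR adjusted p = 0.00188), beside 6.97% of all genes that passed in either direction. Their summed level was 580 and 614 CPM in WT against 557 and 539 CPM in Hnrnpf bKO, and Tnfrsf17, a plasma cell receptor, had at most 3 counts in a library. The part of such cells in the switched counts was not tested.

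**Figure D4:**
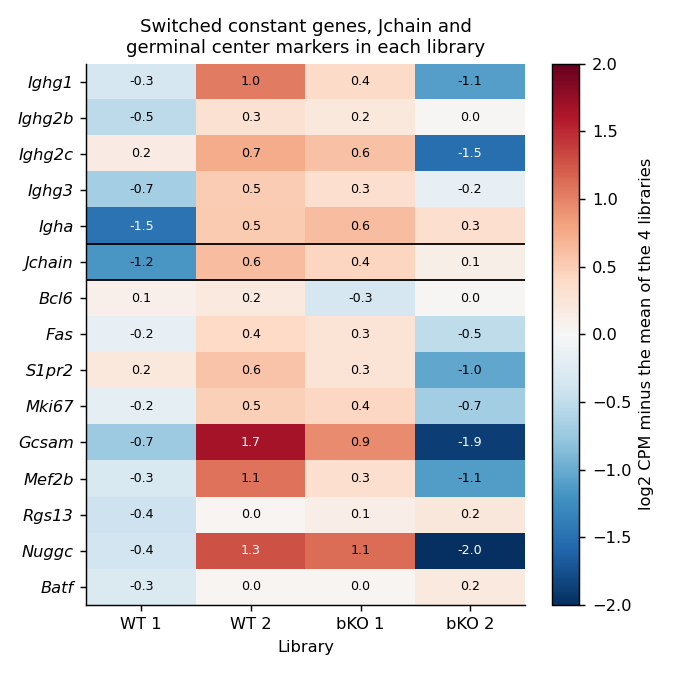
log2 CPM minus the mean of the 4 libraries for the 5 switched genes, Jchain and 9 of the 10 markers of germinal center and switching B cells, with the value written in each cell. All 5 switched genes and 6 of the 9 markers drawn are higher in WT 2 than in WT 1 and in bKO 1 than in bKO 2.

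The genes most like the constant genes in pattern were sought among 9734 tested non-immunoglobulin genes whose mean reached 100 counts, by Euclidean distance of log2 CPM centred over the 4 libraries. With 4 points, such likeness is a description. Nearest to the sum of the switched genes were Glrx (0.30), 9930012K11Rik (0.32) and Alpl (0.37). Nearest to Igha was Jchain (0.45), and nearest to Ighg1 was Kif20a (0.54), a kinesin of cell division. Alpl was nearest to Ighg2b (0.13), Glrx to Ighg3 (0.28) and A530040E14Rik to Ighg2c (0.91). The genes that hardly spread had closer neighbours, Trp53 for Ighm, Ap4m1 for Ighd, Edf1 for Igkc, B430306N03Rik for Iglc1 and Bri3bp for Iglc2, all at 0.02 or less.

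Igkc, the single kappa constant gene, had 34663 and 42477 counts in WT against 33545 and 40582 in Hnrnpf bKO. This gave 2119 and 2246 CPM in WT against 2137 and 2245 CPM in Hnrnpf bKO, and the Hnrnpf bKO values lay within the WT range. The log2 fold change was 0.02 ± 0.05 (SE), with a 95% interval from -0.09 to 0.12 and an edgeR adjusted p of 0.886. Among light chain constant counts (Igkc, Iglc1 and Iglc2), Igkc held 82.3% in both WT libraries and 83.0% and 82.7% in Hnrnpf bKO. With Iglc3 and Iglc4 counted in the light chain total, it held 76.8% and 77.2% in WT against 76.9% and 77.1% in Hnrnpf bKO, and the groups overlapped.

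Iglc1 had 1105 and 1388 counts in WT against 1291 and 1664 in Hnrnpf bKO. This gave 67.5 and 73.4 CPM in WT against 82.2 and 92.1 CPM in Hnrnpf bKO, with both Hnrnpf bKO libraries above both WT libraries. Iglc1 rose by 24.7% (log2 fold change 0.32 ± 0.08 (SE), 95% interval 0.16 to 0.48, edgeR adjusted p = 0.0223). Its share of light chain constant counts was 2.62% (Wilson 95% interval 2.48% to 2.78%) and 2.69% (2.55% to 2.83%) in WT. In Hnrnpf bKO it was 3.19% (3.03% to 3.37%) and 3.39% (3.24% to 3.56%). The call was lost without WT library 1 (0.27, edgeR adjusted p = 0.0737), without Hnrnpf bKO library 2 (0.23, edgeR adjusted p = 0.143) and with limma-trend (0.30, adjusted p = 0.153).

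Iglc2, the most abundant lambda gene, had 6347 and 7764 counts in WT against 5589 and 6798 in Hnrnpf bKO. This gave 388 and 411 CPM in WT against 356 and 376 CPM in Hnrnpf bKO. The Hnrnpf bKO libraries lay below the WT libraries, and the log2 fold change of -0.11 ± 0.05 (SE) did not pass (edgeR adjusted p = 0.247). The share of Iglc2 in light chain constant counts was 15.1% and 15.0% in WT against 13.8% and 13.9% in Hnrnpf bKO. Its near-copy Iglc3 went the other way, with 182 and 178 CPM in WT against 202 and 196 CPM in Hnrnpf bKO (log2 fold change 0.16, edgeR adjusted p = 0.0936). With Iglc2 and Iglc3 summed, the level was 570 and 589 CPM in WT against 558 and 572 CPM in Hnrnpf bKO, and the groups overlapped. As a share of light chain counts with Iglc3 included, the sum was 20.7% and 20.2% in WT against 20.1% and 19.7% in Hnrnpf bKO, and these groups did not overlap. Exons of Iglc2 share 38 bases with the joining segment Iglj2, which had 0 counts in all 4 libraries. How the counting treated reads over both genes is not given. The 0 therefore does not show whether such reads were counted for Iglc2 or left out. Exons of Iglc3 lie over 93 bases opposite an exon of the antisense gene 2010309G21Rik, and the strand setting of the counting is not given in the sources used here.

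The lambda to kappa ratio (Iglc1 and Iglc2 over Igkc) was 0.215 and 0.215 in WT against 0.205 and 0.209 in Hnrnpf bKO, a difference of -0.06 on the log2 scale. With Iglc3 and Iglc4 added to the lambda counts, it was 0.301 and 0.296 in WT against 0.300 and 0.297 in Hnrnpf bKO, and both Hnrnpf bKO values lay between the WT values. Counts of the 7 heavy chain genes were 2.96 and 2.87 times those of the 3 light chain genes in WT. In Hnrnpf bKO they were 3.24 and 3.14 times those of the light chain genes. Counts are not scaled to exonic gene size, which is 1886 bases for Ighm and 1900 for Ighd against 532 for Igkc. The light chain sum here also leaves out Iglc3 and Iglc4. The ratio therefore compares genotypes and does not show that heavy chain RNA exceeded light chain RNA. In FPKM, Igkc lay above Ighm in each library. As first defined, neither the lambda to kappa nor the heavy to light ratio overlapped between genotypes. The exact permutation p was 0.333, as given above.

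Variable segments of the same loci are counted as genes of their own, so their counts can be set beside those of the constant genes. How the counting treated read pairs over both a variable segment and a constant gene is not given in the sources used here. The summed counts of 185 heavy chain variable segments were 0.125 and 0.119 times the heavy chain constant counts in WT against 0.122 and 0.120 times in Hnrnpf bKO. For kappa (160 segments) the ratio was 0.781 and 0.723 in WT against 0.810 and 0.776 in Hnrnpf bKO. Both overlapped between genotypes. For lambda (3 segments, over Iglc1 and Iglc2) it was 0.429 and 0.414 in WT against 0.514 and 0.505 in Hnrnpf bKO, a log2 difference of 0.28 with no overlap. Adding Iglc3 and Iglc4 to the constant counts gave 0.306 and 0.302 in WT against 0.351 and 0.355 in Hnrnpf bKO. The log2 difference was then 0.22, again with no overlap. The lambda segments were looked at singly after these values were seen. Iglv1, which lies beside the Iglc3 and Iglc1 cluster and mostly rearranges to it, went from 64.6 and 64.5 CPM to 84.3 and 86.3 CPM (log2 fold change 0.41 ± 0.07 (SE), edgeR adjusted p = 0.0022). Iglv2, which mostly pairs with Iglc2, went from 14.7 and 17.2 CPM to 23.1 and 28.5 CPM (0.71 ± 0.13, edgeR adjusted p = 0.00534). Iglv3 had 116 and 119 CPM in WT against 118 and 122 CPM in Hnrnpf bKO (0.04 ± 0.06, edgeR adjusted p = 0.714).

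The partners that carry immunoglobulin chains were the last group. Of 13 genes for receptor partners and chain assembly, 10 were tested and 1 passed an edgeR adjusted p of 0.05, as in DESeq2. Among all genes tested, 6.97% passed in edgeR. Cd79a and Cd79b, which encode the signalling chains of the B cell receptor, had log2 fold changes of 0.10 and 0.11 (edgeR adjusted p = 0.221 and 0.226). Both lay higher in the Hnrnpf bKO libraries, with 2186 and 2178 CPM in WT against 2327 and 2308 CPM for Cd79a. The gene that rose was Pdia4, a disulfide isomerase of the endoplasmic reticulum, from 328 and 340 CPM to 483 and 443 CPM (log2 fold change 0.48 ± 0.05 (SE), edgeR adjusted p = 0.000162). Hspa5 and Hsp90b1, chaperones that bind unassembled chains, had log2 fold changes of -0.12 and -0.15 and did not pass (edgeR adjusted p = 0.229 and 0.127). Igll1 and Vpreb2, surrogate light chain genes of B cell precursors, had 0 counts in all 4 libraries.

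Markers of other splenic B cells were read beside the switched and the IgM and IgD values, since each subset carries its own balance of classes. Of 8 marginal zone markers, 2 rose (Cd1d1 and Plac8) and 3 fell (Cr2, S1pr3 and Dtx1), beside 6.97% of all genes that passed edgeR in either direction. Their summed level was 1695 and 1512 CPM in WT against 1317 and 1301 CPM in Hnrnpf bKO. Most of this sum was Cr2, also among the follicular markers, with 1084 and 907 CPM in WT against 718 and 708 CPM in Hnrnpf bKO. Of 8 markers of B-1 cells, 1 fell (Spn) in edgeR, and DESeq2 passed 0. Of 4 memory B cell markers 0 passed the edgeR test, with 0 at an unadjusted p under 0.05 and 0 in DESeq2. Of 5 markers of transitional B cells, 2 could be tested and 1 rose. This was Cd93, against which the cells were sorted, with 8.44 and 11.7 CPM in WT against 16.6 and 19.6 CPM in Hnrnpf bKO (log2 fold change 0.85, edgeR adjusted p = 0.00661). Cd24a, the other one tested, had 351 and 352 CPM in WT against 310 and 334 CPM in Hnrnpf bKO (log2 fold change -0.11, edgeR adjusted p = 0.253). The summed level of the 5 markers was 359 and 364 CPM in WT against 327 and 354 CPM in Hnrnpf bKO. Of 8 T cell markers 0 passed edgeR or DESeq2 (1 at an unadjusted edgeR p under 0.05), and of 4 tested erythroid markers 0 passed either (0 unadjusted). The part of these cells in the constant gene values was not tested.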

How the data were processed

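RNA of sorted FOB cells was sequenced in 2 WT and 2 Hnrnpf bKO libraries, grouped by the genotype in their labels. The authors trimmed paired-end reads with Cutadapt 1.9.1, aligned them to GRCm38 with HISAT2 2.0.1 and counted them with HTSeq 0.6.1, and the deposited counts per gene are whole and unscaled. The deposited FPKM values are the authors' counts per exonic gene size and library total. The libraries were made from poly(A) RNA with a kit that does not mark strand; the strand setting of the counting and the annotation release are not given in the sources used here. Counts are totals per gene, so membrane and secreted forms, and transcripts of switched and unswitched loci, were not separated. The deposited splicing table holds the authors' own comparison and was not used.

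Counts were tested with edgeR 4.0.16 (R 4.3.3; TMM, filterByExpr, quasi-likelihood F test, genotype as the single term) over 14123 genes with Benjamini-Hochberg adjustment; the biological coefficient of variation was 5.90%. Log2 fold changes carried a median standard error of 0.0847 where the mean count reached 100 and 0.398 where it did not, and the test was checked on simulated counts with known changes. The study's own test, DESeq2 (here 1.42.0), other scalings and filters, limma-trend (3.58.1) on log2(FPKM + 1), the replicate block and each library left out in turn were run as alternatives. CPM in the text are counts over the library total. Shares and ratios were compared with exact two-sided permutation tests (scipy 1.17.1). Libraries of a group differed beyond sampling noise (chi-square per degree of freedom 4.30 and 3.86), so each counted as 1 sample. Sequences and exons came from GENCODE vM21, and identities from pairwise alignment in Biopython 1.88.

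The 10 genes, the marker lists and the tests were chosen with earlier results of these data known. Named genes were the 10 members, Hnrnpf, genes of the lists and the genes nearest in pattern; the lambda variable segments were named after their values were seen. Ighg2a is not analysed here. Values of some genes of the lists are not reported here.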

Additional observations from a re-analysis of the deposited data

How the results depend on the processing

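The count of constant genes past an adjusted p of 0.05 (2 in edgeR) was 5 with no filter on low counts, where Ighg1, Ighg2c and Igha joined, and 0 with limma-trend; the cause was not tested. It ranged from 1 to 5 when each library was left out, and the count at a 2-fold change (0 in edgeR) ranged from 0 to 2. Log2 fold changes without each library ranged from -0.0233 to 0.0866 for Ighm, -1.60 to 0.15 for Ighg1, -0.17 to 0.65 for Ighg2b, -1.97 to 0.11 for Ighg2c, -0.39 to 0.79 for Ighg3, -0.015 to 1.98 for Igha and -0.0241 to 0.0593 for Igkc. Differences in heavy chain share, in percentage points, ranged from -0.170 to 0.00212 for Ighg1, -0.126 to 0.166 for Ighg2b, -0.0868 to 0.000258 for Ighg2c, -0.128 to 0.111 for Ighg3, -0.0845 to 0.644 for Igha and -0.572 to 0.900 for the switched sum. The heavy chain variable to constant ratio ranged from -0.0443 to 0.0293 (log2). The remaining shares and ratios kept their direction in each of these fits, and all 18 did so with FPKM in place of counts or with the other constant genes added. With those genes added, however, 2 of the 18 moved by over 1.5 times, both to about 0: the Igkc share difference went from 0.574 to 0.000508 points and the lambda to kappa difference from -0.06 to -2.05e-05 (log2), and the groups then overlapped. With FPKM these were 0.355 points and -0.0376, and the switched sum difference went from 0.164 to 0.0838 points. Summing Iglc2 with Iglc3, chosen after seeing the data, gave a share difference of -0.578 points in place of -1.21.

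DESeq2, RLE size factors, scaling without immunoglobulin genes and at least 10 counts in every library left all 10 gene results on their side of the threshold, in the same direction. Over all genes, calls at a 2-fold change numbered 127 in edgeR, 74 in DESeq2, 217 with no filter and 19 with limma-trend, and 985, 617, 1470 and 41 without the fold threshold. Replicate numbers were shared by both groups in the labels, but deviations of same-numbered libraries did not go together (r = -0.08 across 9875 genes), so the numbers were not taken as a pairing. With the replicate block, Ighd and Iglc1 stayed the 2 genes that passed, and 612 of all genes passed in place of 985. With 2 libraries a group and counts of 40 to 1454 for switched genes, 1 library decides the size and often the sign of their differences, and shares and ratios cannot pass an exact test.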
